A study of Mus musculus with 24 samples.

Results

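The probes described here target genomic intervals that carry only coordinates and a strand letter on the array, with no gene name. Of 16194 such probes among the 55681 distinct probes of the array, 6111 (37.7%) are the members. They were chosen by their measured signal: the scanner software had to place a probe well above background on the 2 arrays of some group, out of 12 groups. Where they were detected is therefore a description, with no test. The files carry the coordinates in the mouse build mm9, per their headers. Whether each interval lies between genes and lacks a reading frame was not checked here, because no annotation of that build was at hand. The sequences of probes and intervals were not used here.

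Long intergenic noncoding RNAs are transcripts of intervals outside protein-coding genes. Many such intervals were first marked out by chromatin, with one histone mark at a start site and another along a transcribed body, and arrays then tiled them with probes for each strand. Transcripts of this kind are known for low abundance and for patterns restricted to cell type, and in pluripotent cells several act in the control of self-renewal and lineage choice.

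RNA was hybridised to 24 single-colour Agilent arrays, 2 for each group. Epiblast stem cells (EpiSCs) are pluripotent lines of the epiblast after implantation: the original protocol gave Wt1 and 129C1, and a Wnt inhibitor was present when 129Ba1, 129Ba2 and BNa17 were derived. A further group was 129C1 under IWP2, which blocks the enzyme Porcn and so the secretion of Wnt proteins. Mouse embryonic stem cells (mESCs), from the blastocyst, were represented by J1, R1 and J1 kept in 2i, a pair of inhibitors of Mek and Gsk3. Hand dissection gave the embryonic groups: E5.5 epiblast, E6.5 epiblast and, at E7.5, embryonic ectoderm. All cell lines were kept on feeder cells and separated from them before RNA extraction. The labels give no sex, passage or clone of a line, no number of embryos, and no statement that replicate arrays came from separate cultures or dissections, so p-values measure only the spread between these samples, which may be technical.

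The 75th percentile of the processed signal had a median of 166 over the arrays and a highest value of 253, in E6.5 epiblast. BNa17 replicate 1 stood apart at 69.3, and correlated with its replicate over the members at r = 0.924, the lowest of the 12 pairs (highest 0.975). Between 15.7% and 35.6% of the interval probes of an array were well above background. Of 8 naive pluripotency markers, all 8 were detected in J1, R1 and J1 in 2i, with summed log2 levels of 8.64 to 9.69. In the EpiSC groups 1 to 6 were detected and in the embryonic groups 6 to 8, with summed levels of at most 2.78. All 8 feeder fibroblast markers were detected in every cell line group, with summed log2 levels of 5.98 to 8.60, against 4 to 6 of 8 in the embryonic groups, at 2.72 to 3.96. In such bulk samples, fewer cells with a transcript and less of it per cell cannot be told apart. Below, a level is log2 of the processed signal minus the 75th percentile of its array. Signals of different probes also differ by how well each probe binds, so levels are compared between samples for 1 probe.

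Members were detected less widely than probes to messenger RNAs. Of the messenger RNA probes on the array, 73.5% met the same rule, and 44.7% of probes to RNAs annotated as noncoding. Only 1794 members (29.4%) were well above background on all 24 arrays, against 64.8% of the detected messenger RNA probes. At the other end, 979 members were detected in exactly 1 group, 391 of them in E6.5 epiblast and 185 in J1 in 2i. For these 979 members the median signal was 22.1 in the group that admitted them. A further 3656 interval probes were well above background on some array but not on both arrays of any group, with a median highest signal of 27.9, and 6427 were so on no array.

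The number of members detected in a group ran from 2368 in BNa17 to 4894 in E6.5 epiblast. J1 in 2i had 3947 and J1 had 2899. The 75th percentiles were 122 and 148 in J1 in 2i and 151 and 175 in J1. The detection limit differed too: the lowest level called well above background was -3.30 and -3.50 in J1 in 2i and -3.32 and -3.12 in J1. Signal and detection moved together at both extremes, since BNa17 held the dimmest array and E6.5 the brightest, and the part of signal in the counts was not tested. The median member level lay highest in J1 in 2i, at -2.25, and lowest in 129Ba1, at -2.99, a range of 0.73 over the 12 groups that shrank to 0.44 with another background correction (normexp) and to 0.38 with quantile normalisation.

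**Figure D1:**
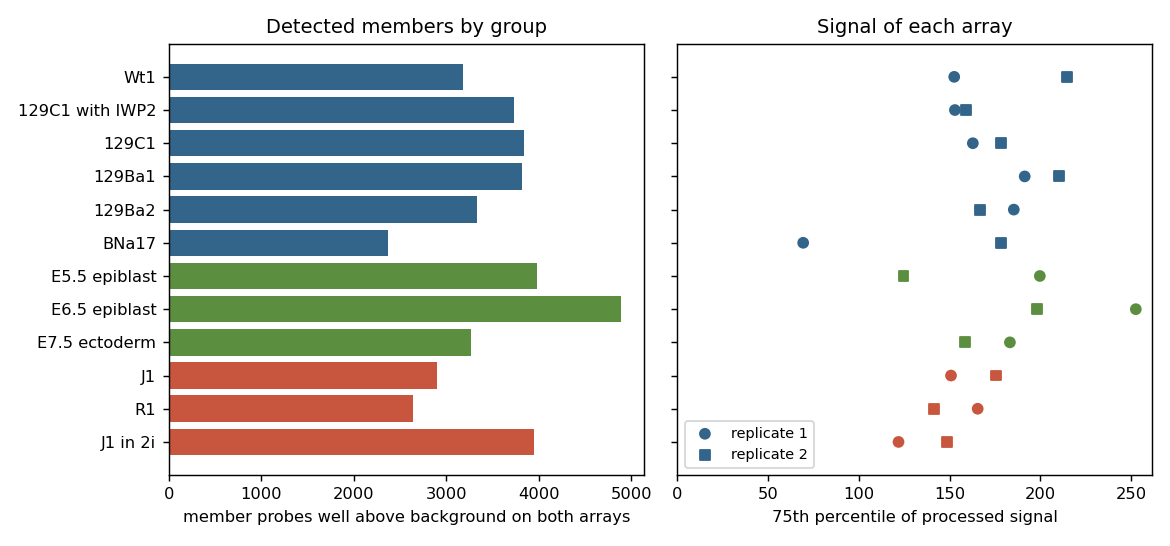
The left panel plots, for each of the 12 groups, the number of member probes well above background on both arrays, and the right panel the 75th percentile of processed signal of each array (circles, replicate 1; squares, replicate 2; blue, EpiSC; green, embryo; red, mESC). Counts run from 2368 in BNa17, which holds the dimmest array at 69.3, to 4894 in E6.5 epiblast, which holds the brightest at 253.

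Members came from 2964 of the 4610 intervals on the array, counting each strand as its own interval, and 1558 of these held at least 2 members. Overlapping intervals shared ground, and the 2964 fell on 1630 separate loci. Intervals with a member had a median length of 11901 bases against 7538.5 for those without, and carried 3.90 probes on average against 2.82. The share of probes that were members was 33.3% in intervals of up to 2000 bases and 37.3% up to 10000. It was 39.7% up to 50000 bases and 38.3% above. The part of the number of probes in the difference of length was not tested. The strand letters were evenly used, with 3008 members marked F, 3100 marked R and 3 with no letter. The files do not say whether the letter names the transcript or the probe.

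The strands of an interval gave profiles less alike than those of probes on 1 strand. Of 1067 pairs of intervals at identical coordinates on both strands, 605 held members on both strands, 361 on 1 strand and 101 on neither. Across the 12 group means, the brightest probes of opposite strands, which were not always members, correlated with a median r of 0.32 over the 605 pairs. Member probes of the same interval and strand correlated with a median r of 0.65 over 6215 pairs, which share their samples and often their interval. Only these pairs were limited to members, so the 2 values are not on an equal footing. In 6.12% of opposite-strand pairs and 35.1% of same-strand pairs r was above 0.8. Members of different loci less than 10 kb apart had a median r of 0.35 (368 pairs), and those over 1000 kb apart on the same chromosome 0.19 (223726 pairs). The median gap in signal between the brightest probes of the 2 strands was 2.13 on the log2 scale, a gap that includes how well each probe binds.

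**Figure D2:**
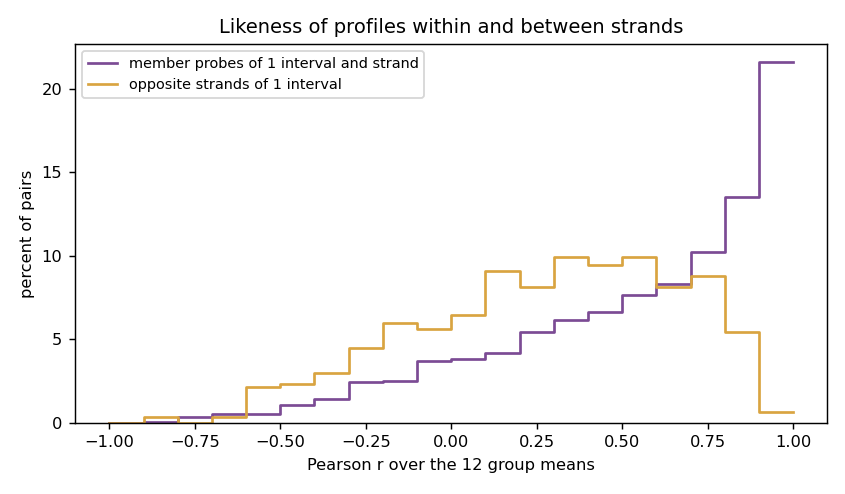
The plot gives the share of probe pairs (vertical axis, percent) at each Pearson r over the 12 group means (horizontal axis, steps of 0.1). Purple marks members of 1 interval and strand (6215 pairs), and gold the brightest probes of opposite strands, not always members (605 pairs). Same-strand pairs pile up near the upper end, while opposite-strand pairs spread around their median of 0.32.

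The members with the highest signals were well above background on all 24 arrays. The probe of chr11:22681800-22707775 (R) stayed between 9.39 and 10.43 on all 24 arrays, and that of chr17:39982023-39983277 (F) between 8.24 and 9.86. The probe of chr14:78924115-78938125 (F) lay between 8.67 and 10.41, but the next brightest of the 7 probes there had a mean level of -2.41. On chr17 the next brightest of 3 probes had 7.69, and the chr11 interval had 1 probe. On chr11 and chr14 the highest value was that of BNa17 replicate 1.

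In the tests below, calls needed a 2-fold difference and, in limma with Benjamini-Hochberg adjustment over every probe tested, an adjusted p below 0.05. A member detected only where it is high had to differ there, so each count is followed by that among members detected throughout, meaning well above background on every array compared. Each is set beside the percent of all probes called under the same condition.

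**Figure D3:**
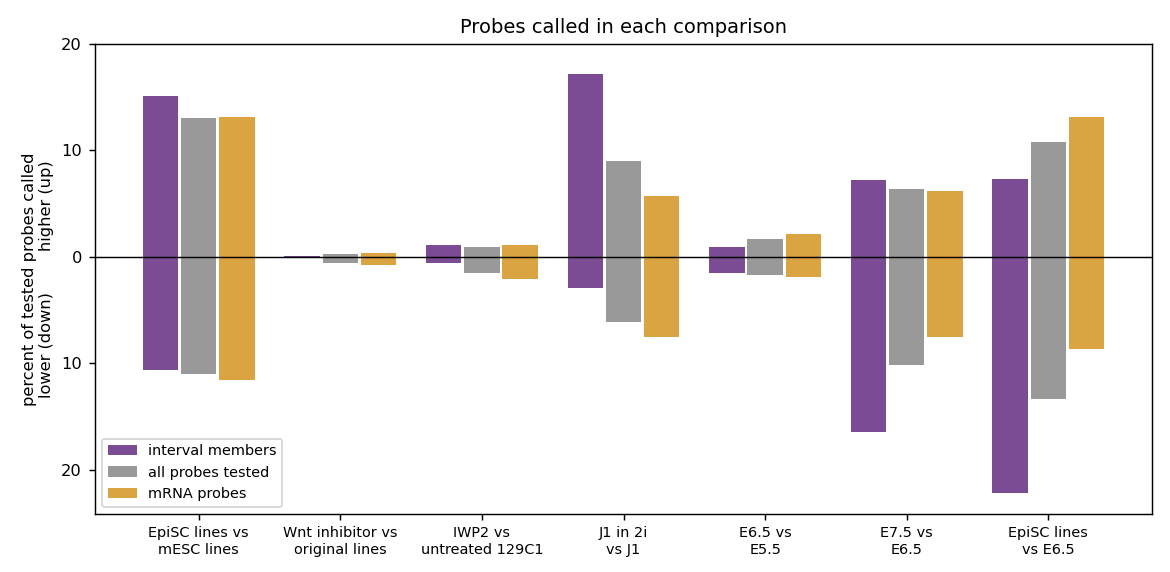
For each of 7 comparisons the bars give the percent of tested probes called higher (up) or lower (down) in the first-named group, for interval members (purple), all probes tested (grey) and messenger RNA probes (gold). In 2i members were called higher in 17.2% and lower in 2.88% of cases, and in EpiSC lines against E6.5 epiblast higher in 7.33% and lower in 22.1%.

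EpiSC and mESC lines differed at many intervals. Every EpiSC array lay on other slides and was scanned on another day than the J1 and R1 arrays, so slide, scan day and kind of line cannot be told apart. The 5 EpiSC lines were compared with the 2 mESC lines, each line averaged over its arrays. Of 4750 members tested, 25.7% were called, close to the 24.1% of all probes tested: 718 members were higher in EpiSC lines and 505 lower, or 15.1% and 10.6% against 13.1% and 11% of all probes. Among the 1859 members detected throughout, 141 were higher and 107 lower, or 7.58% and 5.76% against 8.92% and 8.54% of all such probes (17.5% in either direction). The median difference of the members was 0.29 and that of all probes 0.08. The split of calls moved with the processing: 58.7% of called members were higher in EpiSC lines, against 73.3% when the percentile was taken over probes detected on all arrays, and 18.1% of 281 with the normexp correction. Without J1 606 members were called and without R1 726; without BNa17 replicate 1 there were 1168.

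The largest bound on a difference was at an R interval of chr13. The probe of chr13:66381200-66410200 (R) had levels between 2.90 and 3.15 in the 4 arrays of J1 and R1, and in the 10 EpiSC arrays its lowest, median and highest levels were -6.30, -5.79 and -4.37. It was well above background on no EpiSC array, so the difference is a bound: at least 96.1-fold lower in EpiSC lines, where the lowest signal called well above background stands in for the dim side (adjusted p = 2.49e-05, means of -5.51 and 2.99). Its other 3 probes were called in the same direction. On the same chromosome and strand letter, chr13:66888650-66902600 (R) was at least 71.2-fold lower in EpiSC lines (adjusted p = 6.19e-06), and both of its probes were called.

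On other chromosomes the same order of groups was seen. For chr7:48794017-48815817 (R) the mESC arrays lay between 2.43 and 2.66 and no EpiSC array was above background, a difference of at least 71.0-fold (adjusted p = 6.23e-06) with all 5 probes called. The probe of chr8:119090566-119097735 (R) was above background on every array of both kinds of line, between 2.94 and 3.25 in the mESC arrays and between -2.90 and -1.56 in the EpiSC arrays. It fell by 5.40 ± 0.25 (SE) in EpiSC lines, and all of its 5 probes were called lower. The probe of chr17:34003823-34011015 (F) lay between 3.79 and 4.13 in mESC arrays and between -2.36 and -0.48 in EpiSC arrays, with means of 4.01 and -1.49 (SE of the difference 0.40, adjusted p = 9.17e-05). At none of these probes did the arrays of the 2 kinds of line overlap.

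Among members detected throughout, the largest rise in EpiSC lines was smaller than the falls just given. The probe of chr7:67119535-67120213 (R) was 2.74 ± 0.50 (SE, adjusted p = 0.00605) higher, with all 3 probes called. Its levels in EpiSC arrays ran from -1.09 to 3.09, the highest on BNa17 replicate 1, and in mESC arrays from -2.71 to -1.72. The probe of chr5:123439974-123448354 (F) lay between 0.59 and 1.32 in EpiSC arrays and between -1.29 and -0.95 in mESC arrays, 2.17 ± 0.19 (SE) higher, again with all 3 probes called. J1 in 2i lay with the other mESC arrays at this probe, at -1.05 and -0.73, and the embryonic arrays with the EpiSC arrays, between 0.72 and 1.11.

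Detection in 1 class alone was uncommon. Counting J1 in 2i with mESCs and the IWP2-treated line with EpiSCs, 300 members (4.91%) met the detection rule in embryonic groups alone. In mESC groups alone 186 (3.04%) met it, and in EpiSC groups alone 157 (2.57%). The share of other probes is not given for these counts. By the stricter count, 58 members were well above background on all 6 mESC arrays and on no other array, 12 on all 6 embryonic arrays only, and 1 on all 12 EpiSC arrays only. These were 0.949%, 0.196% and 0.0164% of the members. The detected messenger RNA probes gave 81, 3 and 3, or 0.415%, 0.0154% and 0.0154%. Since the classes hold 6 and 12 arrays, these numbers are not on an equal footing. The probe of chr4:127020290-127020504 (F) showed the mESC pattern, with levels of -0.03 and -0.52 in J1, -0.02 and -0.08 in R1 and 1.04 and 1.11 in 2i. The probe of chr16:9158862-9162427 (F) did so too, at -0.14 to 0.55 in mESC arrays. For the embryonic pattern, chr2:104640443-104659168 (R) lay between -2.72 and -1.03 in the 6 embryonic arrays.

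Few members were called between EpiSC lines made with a Wnt inhibitor and lines of the original protocol, in a fit over 5 line means. Of 4420 members tested over 3 and 2 lines, 0.204% were called against 0.879% of all probes: 3 members were higher (0.315% of all probes) and 6 lower (0.564% of all probes), and 615 had an unadjusted p below 0.05. Among 2166 members detected throughout 1 was called, a higher one, against 0.322% of all such probes (0.135% higher, 0.187% lower). The median difference of members was -0.23. The count rested on the test and on single lines: within the slide that holds 129C1 and the 3 Wnt inhibitor lines, with arrays as replicates, 300 members were called, without 129C1 94, without Wt1 25, and without any one of 129Ba1, 129Ba2 or BNa17 1; without BNa17 replicate 1 it was 5.

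Of the 9 called members, 5 came from a pair of intervals on chr13. At chr13:58474388-58487288 (R) the Wnt inhibitor lines lay between 1.68 and 2.60, and Wt1 (-1.06 and -0.04) and 129C1 (-1.80 and -1.81) far below, a difference of 3.37 ± 0.45 (SE, adjusted p = 0.0443). The groups did not overlap, and IWP2-treated 129C1 stayed low at -1.26 and -2.80. The mESC and embryonic arrays lay with the Wnt inhibitor lines, between 2.38 and 3.49. Of its 4 members 2 were called. The call was lost in 13 of 27 alternatives, where the adjusted p reached 0.183 and the difference was as low as 2.54; it was among the calls lost without either array of BNa17. At chr13:56851404-56851796 (R) all 3 probes were lower in the Wnt inhibitor lines, by 2.15 ± 0.24 (SE, adjusted p = 0.0273) for the brightest. Endoderm markers moved with these groups: 5 of 5 were detected in Wt1 and in 129C1, with summed log2 levels of 5.18 to 6.61, and 0 of 5 in the Wnt inhibitor lines, at -2.47 to -1.28. Their part in the result was not tested.

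A block of overlapping intervals on chr8 was lower in IWP2-treated than in untreated 129C1. The probe of chr8:67552315-67561235 (R) stood at 4.85 and 4.82 in untreated 129C1 and at 1.69 and 1.29 after IWP2, a fall of 3.34 ± 0.25 (SE, adjusted p = 2.74e-06). Over the same ground chr8:67550064-67560987 (R) fell by 3.51 ± 0.31, from 1.54 and 1.60 to -1.75 and -2.13, and chr8:67542714-67561694 (F) by 3.57 ± 0.36, with all 4 of its members called lower. Probes of both strand letters fell at this locus. Wt1, also of the original protocol, had 4.22 and 3.99 at the first of these probes, and the 6 arrays of Wnt inhibitor lines 1.47 to 3.28.

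The 3 probes of chr13:56851404-56851796 (R), lower in the Wnt inhibitor lines, were also lower with IWP2, the brightest by 1.65 ± 0.33 (SE, adjusted p = 0.0115, lost in 4 of 15 alternatives). That comparison shares the 129C1 arrays. The probe of chr16:39984031-40081556 (R) rose from 5.78 and 5.88 to 8.12 and 7.69, by 2.08 ± 0.30 (SE, adjusted p = 0.000844), while its other 3 probes, at differences of 0.04 to 0.66, were not called.

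A pair of intervals chosen after their values were seen held several probes that rose. At chr3:87757295-87774970 (F) 4 of 5 probes rose, by 2.03 to 2.32, and the other was not called. At the brightest of these 4, untreated 129C1 was the lowest of the 12 groups, with a mean of 3.07. The mean was 5.27 with IWP2, 5.49 in untreated Wt1 and 5.23 to 5.59 in the Wnt inhibitor lines. At chr7:128341797-128414692 (R) 5 probes rose, by 1.43 to 1.72. In all, 1.65% of 6111 members were called against 2.5% of all probes: 68 higher and 33 lower, or 1.11% and 0.540% against 0.982% and 1.52% of all probes. Among 3404 members detected throughout 27 were higher and 19 lower, 1.35% in all against 1.71% of such probes (0.703% higher, 1.01% lower). With normexp 30 were called and with no filter on dim probes 61. Treated and untreated arrays shared no slide, so the treatment and the slide cannot be told apart. Of the endoderm markers 5 of 5 were detected before IWP2 (summed log2 levels 6.35 and 6.61) and 0 of 5 after (-1.85 and -2.36). Streak and mesoderm markers went from 4 of 6 (at 4.13 or above on both arrays) to 2 of 6 (0.06 and 0.56), and the part of either list was not tested.

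In 2i most of the called members rose. The J1 arrays in 2i were compared with J1 in conventional medium: 20.1% of 6111 members were called against 15.2% of all probes, and the median difference was 0.56 against 0.09. Called higher were 1051 members and lower 176, or 17.2% and 2.88% against 9.02% and 6.13% of all probes. Messenger RNA probes split the other way, with 1120 higher and 1471 lower. Probes to RNAs annotated as noncoding split as the members did, with 67 higher and 27 lower of 543 (12.3% and 4.97%). Among the 2756 members detected throughout 355 were higher and 73 lower, 12.9% and 2.65% against 5.83% and 5.3% of such probes (11.1% in either direction). The share of called members that were higher was 85.7%, 74.9% with quantile normalisation, and 73.5% of 170 with normexp; leaving out 1 of the 4 arrays left 610 to 805 called, 77.2% to 84.2% of them higher. In 3 classes of 2037 members by mean level, the median differences were 0.65, 0.68 and 0.42 from the dimmest to the brightest. At 88 pairs of coordinates members were called on both strands, in the same direction at 77 and in opposite directions at 11. Most called members rose, so these numbers do not measure a link between strands. From E6.5 to E7.5, where calls were less one-sided, 76 of 111 such pairs had the same direction and 35 opposite directions. The arrays of J1 and of J1 in 2i were on separate slides scanned on different days, so slide and medium cannot be told apart. Definitive endoderm markers went from 5 of 5 detected in J1 (summed log2 levels 2.88 and 2.62) to 2 of 5 in 2i (0.42 and 0.62), and streak and mesoderm markers from 4 of 6 (2.82 and 2.62) to 2 of 6 (-0.27 and -0.08). Their part was not tested.

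Single members show the size of these rises. At chr15:102920547-102933472 (F) J1 had -1.47 and -1.81 and J1 in 2i 0.98 and 0.90, a rise of 2.58 ± 0.38 (SE, adjusted p = 0.000433), and its second member was called too. At chr13:48620882-48643532 (R) J1 had -0.87 and 0.13 and J1 in 2i 2.10 and 2.16, 2.49 ± 0.44 higher, and 2 of its other 4 members were called. R1 in conventional medium had -0.71 and 0.07 there. Among members detected throughout, the largest falls were at chr12:82500406-82501102 (F), by 2.30 ± 0.29 (SE, adjusted p = 0.000149) from 0.91 and 0.75 to -1.24 and -1.70, and at chr5:35893909-35899497 (F), by 2.12 ± 0.23 (SE, adjusted p = 5.03e-05). The chr5 probe had 2.47 and 2.32 in J1 and 0.25 and 0.31 in 2i, with R1 between them at 1.68 and 1.26. The other member of chr12:82500406-82501102 (F) was not called lower and went the other way, at a difference of 0.58. Of the members not above background in 2i, chr12:88216358-88221647 (R) had 0.21 and -0.85 in J1 and -5.23 and -5.44 in 2i, at least 8.46-fold lower in 2i (adjusted p = 9.79e-06); it was detected in J1 alone.

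**Figure D4:**
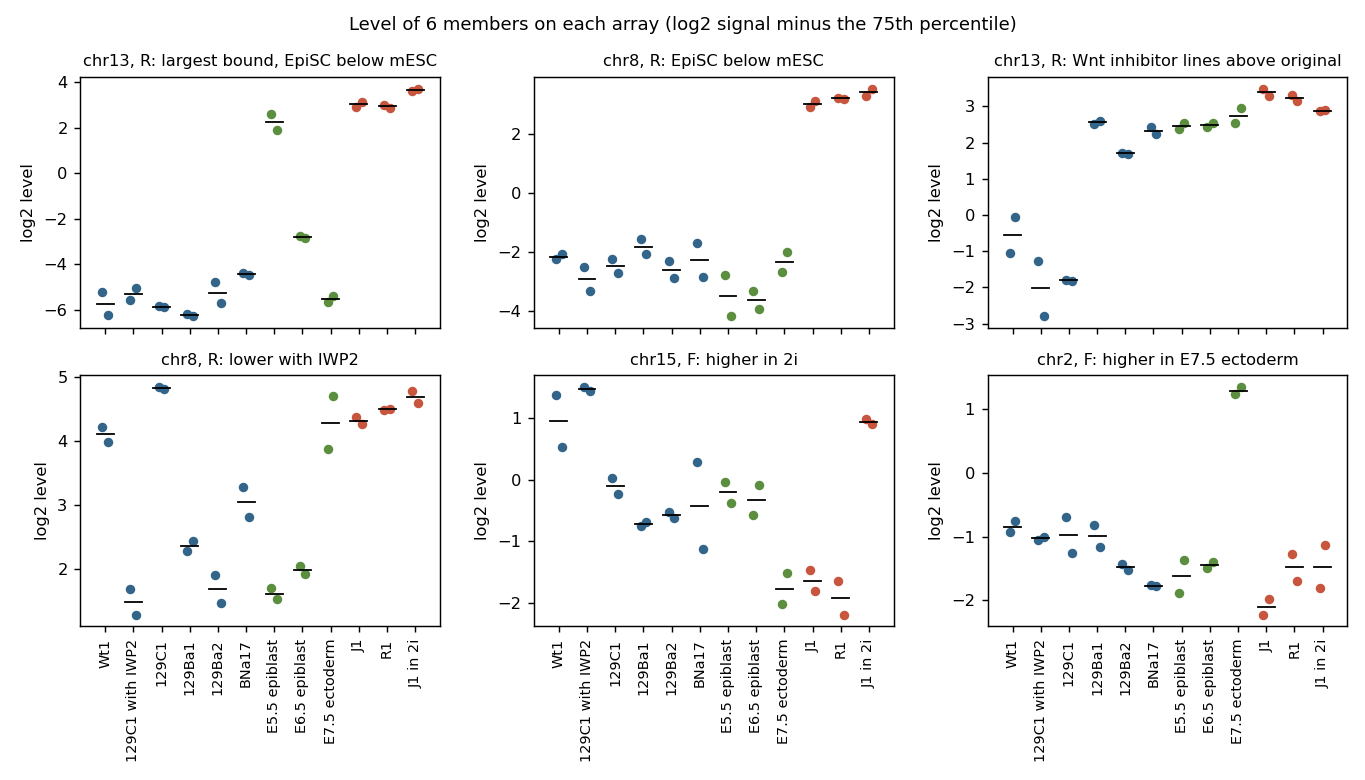
Each panel plots the level of 1 member (log2 signal minus the 75th percentile of the array) on the 2 arrays of each of 12 groups, with a line at the group mean; blue is EpiSC, green embryo and red mESC, and each panel names the chromosome and strand letter. The chr13 member of the first panel is at 1.93 or above in E5.5 epiblast and all mESC arrays and at -2.78 or below elsewhere, and the chr8 member of the fourth falls from 4.85 and 4.82 to 1.69 and 1.29 with IWP2.

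Between E5.5 and E6.5 epiblast 2.45% of 6111 members were called against 3.38% of all probes: 59 higher and 91 lower, or 0.965% and 1.49% against 1.68% and 1.69% of all probes. Among 3870 members detected throughout 20 were higher and 44 lower, 1.65% in all against 2.57% of such probes (1.19% higher, 1.38% lower). Both stages lay on 1 slide. All 7 visceral endoderm markers were detected in both stages, with summed log2 levels of 2.89 and 6.22 at E5.5 and 3.98 and 4.56 at E6.5. Streak and mesoderm markers went from 3 of 6 (3.22 and 2.80) to 6 of 6 (6.28 on both arrays), and the part of either list was not tested. With normexp 57 were called, and without one of the E6.5 arrays 68 and 75. Among members detected throughout, the largest falls were at the chr13 intervals that separated EpiSC from mESC lines. At chr13:66381200-66410200 (R) the E5.5 arrays had 2.60 and 1.93, near the mESC arrays, and the E6.5 arrays -2.78 and -2.85, a fall of 5.07 ± 0.33 (SE, adjusted p = 1.7e-06). In E7.5 ectoderm it lay at -5.68 and -5.39, as in the EpiSC arrays. At chr13:66888650-66902600 (R) the fall was 4.32 ± 0.62 (SE, adjusted p = 0.000923). The probe of chr15:79709500-79714700 (R) rose by 2.58 ± 0.41 from -0.82 and -1.62 to 1.36 on both arrays, and was back at -1.19 and -0.76 in E7.5 ectoderm.

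The change from E5.5 to E6.5 and the difference of EpiSC from mESC lines share no array. Of the 150 members called between stages, 78 (52.0%) were also among the 1223 called between kinds of line (6.38% of those), 71 in the same direction and 7 in opposite directions. All probes gave near values: 493 shared, or 46.1% of 1069 and 7.15% of 6897, with 442 in the same direction and 51 opposite. For the step from E6.5 to E7.5 the shared members were 279, or 19.3% of 1448, with 141 in the same direction and 138 opposite, against 25.5% of 5230 for all probes, with 855 and 477.

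From E6.5 epiblast to E7.5 ectoderm 23.7% of 6111 members were called against 16.5% of all probes: 444 higher and 1004 lower, or 7.27% and 16.4% against 6.35% and 10.2% of all probes. Among 3085 members detected throughout 234 were higher and 429 lower, against 5.63% and 6.68% of such probes (12.3% in either direction). Messenger RNA probes gave 1216 and 1472, and probes to RNAs annotated as noncoding 26 and 66 of 543. With normexp 359 were called, the median member difference turning from -0.26 to 0.09, and without one of the E6.5 arrays 612 and 884 were called; without E7.5 replicate 1 it was 724. The stages lay on different slides, so slide and stage cannot be told apart. Visceral endoderm markers went from 7 of 7 detected at E6.5 (summed log2 levels 3.98 and 4.56) to 3 of 7 at E7.5 (1.31 and 1.37). Definitive endoderm markers went from 5 of 5 (4.27 and 4.59) to 3 of 5 (1.04 and 1.58), and trophoblast markers from 6 of 6 (2.13 and 2.63) to 5 of 6 (4.66 and 4.61). The trophoblast list was mixed: Cdx2 (-1.51 to 4.17), Gata3 and Tfap2c rose, and Elf5 (-0.65 to -5.15), Ascl2 and Krt7 fell. Streak and mesoderm markers went from 6 of 6 (6.28 on both arrays) to 5 of 6 (3.18 and 5.34). The part of these lists was not tested. The probe of chr2:33500594-33501874 (F) was low on all other arrays, between -2.23 and -0.69, and reached 1.24 and 1.35 in E7.5, a rise of 2.74 ± 0.25 (SE, adjusted p = 6.32e-06) with its 3 probes called. At chr5:35975265-35982561 (R) E6.5 had 2.06 and 2.67 and E7.5 4.98 and 4.96, 2.61 ± 0.33 higher. The probe of chr5:74487385-74497428 (R), between 3.36 and 7.46 on all arrays outside E7.5, fell to -0.34 and 0.32, by 4.21 ± 0.58 (SE, adjusted p = 0.000199), but only 2 of its other 7 members were called lower.

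EpiSC lines were lower than E6.5 epiblast at most of the members that differed. The fit held the means of the 5 EpiSC lines and the 6 embryonic arrays. Its spread thus joins that between lines and that between arrays of a stage, which may be technical. Of 5663 members tested 29.5% were called against 24.1% of all probes: 415 higher in EpiSC lines and 1254 lower. These were 7.33% and 22.1% against 10.8% and 13.3% of all probes. Messenger RNA probes gave 2514 higher and 1643 lower, and probes to RNAs annotated as noncoding 49 and 94 of 514. Among 2136 members detected throughout 128 were higher and 309 lower, or 5.99% and 14.5% against 8.66% and 8.48% of such probes (17.1% in either direction). The share called higher was 24.9%, and 40.0% when the percentile was taken over probes detected on all arrays. With normexp 254 were called and the median turned from -0.46 to 0.05; with slide as a random block 888 were called, and without one of the E6.5 arrays 1041 and 769; without BNa17 replicate 1 it was 1720. EpiSC lines and E6.5 epiblast shared no slide, so slide and group cannot be told apart. The feeder markers given above differed between these groups. Visceral endoderm markers were detected at 7 of 7 in E6.5 epiblast (summed log2 levels 3.98 and 4.56) and at 1 to 4 of 7 in the EpiSC lines (0.55 to 3.78). Streak and mesoderm markers were detected at 6 of 6 in E6.5 epiblast (6.28 on both arrays) and at 1 to 5 of 6 in the EpiSC lines (-0.61 to 4.92). The part of these lists was not tested.

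Among the members higher in EpiSC lines, chr5:22890322-22939119 (R) lay between -1.06 and -0.23 in EpiSC arrays against -3.67 and -3.03 in E6.5, 2.75 ± 0.23 (SE, adjusted p = 8.07e-05), with all 3 probes called. The probe of chrX:90997595-91009570 (R) lay between 1.54 and 3.09 against -0.68 and -0.71, 2.85 ± 0.36 higher, and none of its other 8 members was called. Among those lower, chr19:27448093-27462793 (F) had 2.58 and 3.02 in E6.5 and -1.70 to 0.80 in EpiSC arrays, a fall of 3.36 ± 0.30 (SE, adjusted p = 0.000107). The probe of chr12:82500406-82501102 (F), lower in 2i, was also lower in EpiSC lines than in E6.5, by 3.15 ± 0.26, with 2.83 and 2.75 in E6.5.

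Noncoding RNA genes with a name gave a comparison from the same arrays. Of 32 such genes listed, 18 were tested. In 2i 6 were called by limma, all higher, against 15.2% of all probes: Meg3, an imprinted RNA (1.78), Neat1 and Malat1, nuclear RNAs of paraspeckles and speckles (2.44 and 2.37), Tug1 (1.54), Mirg, a microRNA host (1.16), and Terc, the RNA of telomerase (1.60), on the log2 scale. In EpiSC against mESC lines 6 were called, all higher, against 24.1% of all probes, among them Meg3 (1.39), Tug1 (1.40), Malat1 (1.43) and Peg13 (1.61), and in EpiSC lines against E6.5 epiblast 1 was higher and 5 lower, beside 24.1% of all probes. With IWP2 2 were called, both lower (Neat1, -1.82, and Six3os1, -1.76), beside 2.5% of all probes. Six3os1 was well above background on no treated array, so its size rests on signals near background. From E6.5 to E7.5 1 was higher and 4 lower, beside 16.5%. Among the lower ones was Xist (-5.72), well above background on 2 E6.5 arrays and 0 E7.5 arrays, so the same limit holds. Xist was well above background on 4 of 4 arrays of the original-protocol lines and 2 of 6 of the Wnt inhibitor lines. In J1 and R1 it was so on 0 of 4, and the labels give no sex. In the Wnt inhibitor lines 2 were higher, Kcnq1ot1 (3.54) and Pvt1 (1.98), beside 0.879%. The same limit holds for Kcnq1ot1, which was well above background on no array of the original-protocol lines. Between E5.5 and E6.5 limma called 0, with 3 at an unadjusted p below 0.05, beside 3.38%. The list was chosen with earlier results known, its counts are a description, and they were not repeated under other scalings.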

How the data were processed

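Expression was measured in 24 samples on 1-colour Agilent arrays (6 slides, 4 scan days, per the file headers). The authors deposited 1 scanner file per array, read with Agilent Feature Extraction 10.5.1.1 per the submitters' processing notes. The intensity values are the processed signals of 1 channel as deposited, per the file headers. The authors' deposited table of log2 values served as an alternative: each probe is centred on its median over the arrays, column medians run from -0.35 to 0.78, and each column matched its own array (r of at least 0.99997 with the centred levels used here, at most 0.793 with another array).

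Spots of a probe were averaged without outlier flags, and log2 signals were scaled to each array's 75th percentile. limma 3.58.1 in R 4.3.3 was fitted over the probes that met the detection rule in some group of the fit: line means for comparisons of kinds of line (with the embryo arrays for EpiSC against E6.5), otherwise all 24 arrays as 12 groups. Each error is the standard error (SE) of a log2 difference; tests are two-sided. The fits were tested on simulated data.

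The members, lists and rules were chosen with earlier results of these data known. Named members are the brightest probe of an interval: the 6 with the highest mean level; per comparison the 4 largest rises and falls detected on both sides; the 3 largest bounds in 4 comparisons; up to 3 per class detected there only; the intervals with the most members or largest strand gap. Not every such member is described. Alternatives are in the closing section.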

Additional observations from a re-analysis of the deposited data

Results flagged for a closer look

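Of 19 named members compared between EpiSC lines and mESC lines or E6.5 epiblast, 1 had an EpiSC line far from the other 4 (a gap over the range above 0.71, which chance gives in about 1 of 20 groups). At chr15:74436455-74466741 (R) the mean of 129Ba1 was 1.15, and the other lines lay between 1.68 and 1.80. All 5 line means were above the highest array of J1 and R1, at -0.25, and above both arrays of J1 in 2i, at 0.58 and 0.65.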

How the results depend on the processing

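The 58 named differences kept their direction in all 1164 values under alternatives, 1 value per difference and alternative. Many values come from the same fit, and the differences were picked among the largest called, so this is a description. The call was lost in 80 of these values, and 36 of the differences kept it in every alternative. Counts of members called changed as follows, in the order EpiSC against mESC, Wnt inhibitor against original, IWP2, 2i, E6.5, E7.5 and EpiSC against E6.5. The normexp correction, run on median signals because the files hold no mean signals, gave 281, 22, 30, 170, 57, 359 and 254. Only probes detected on all arrays of both sides, refitted, gave 263, 48, 458, 71, 691 and 446 outside the Wnt inhibitor comparison. No filter on dim probes gave 61 for IWP2 and 86 for E6.5. Slide as a random block gave 153 for Wnt inhibitor against original and 888 for EpiSC against E6.5. For the Wnt inhibitor lines, trend and robust variance gave 18, arrays as replicates 373, and the fit within 1 slide 300. Leaving out an array or line gave 606 (J1; 726 without R1) to 1288, 1 to 94 (1 to 10 for arrays; 25 without line Wt1), 70 to 90, 610 to 805, 68 to 131, 612 to 1165 and 769 to 1771 (1720 without BNa17 replicate 1). A lone remaining sample was assumed to vary like the others.

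With the replicate number as a block the counts were 103 for IWP2, 1216 for 2i, 151 for E6.5 and 1437 for E7.5. Same-numbered arrays deviated together with correlations of 0.07, -0.02, 0.15 and 0.04. With 2 arrays a group these values cannot settle whether the numbers pair samples, and the labels do not say. The number of members was 12429 with the weaker flag for signal above background, 9767 with 1 array enough, 1794 with all 24 required, and 6181 to 7011 leaving out an array. The strand gap became 0.89 with normexp. The range of group medians, 0.73, became 0.44 with normexp and 0.38 with quantile normalisation, alternatives chosen after seeing the data.

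Most members are dim: with 2 arrays a group and the dimmest array at a 75th percentile of 69.3, absence of detection is no absence of transcript, and normexp, which adds an offset of 50, compresses differences between dim values by construction.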
